A study of Mus musculus with 4 samples.

Results

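The immediate-early genes and the genes of ERK feedback were examined as a set of 35 named genes, of 55385 genes in the count table. Members were listed by symbol, with no measured value in the rule, and were matched through their Ensembl identifiers. The immediate-early subset held 23 genes, namely the FOS and JUN families of AP-1, EGR, IER and KLF genes, Atf3, Myc, Maff, Mafk, Btg2 and Zfp36. The feedback subset held 12 genes, namely Dusp1, Dusp2, Dusp4, Dusp5, Dusp6, Spry1, Spry2, Spry4, Spred1, Spred2, Etv4 and Etv5. The choice of members asks how the immediate-early subset compared with the feedback subset.

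RNA was sequenced in bulk from granulosa cells (GCs), the somatic cells around the oocyte, in 4 libraries. The follicles came from ovaries of Kunming mice, females at an age of 12 to 14 days, and were cultured one by one for 6 days, with neurotrophin-4 in the NT4 group (2 libraries) and without it in the Control group (2 libraries). Follicle-stimulating hormone was in the medium of both groups, and NT-4 was given at the dose chosen in the study's own trial of doses. GCs were collected after 6 days, not minutes after a first exposure. Part of the medium, with its NT-4, was renewed every other day, and the time from the last renewal to collection is not stated. By the study's description, the libraries of a group came from independent experiments, so p-values measure the spread between experiments, over 2 per group. In such bulk samples, fewer cells of a type and less RNA per cell cannot be told apart.

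NT-4 binds the receptor tyrosine kinase TRKB (gene Ntrk2) and the low-affinity receptor p75 (gene Ngfr), and TRKB signals through RAS, RAF, MEK and extracellular signal-regulated kinase (ERK). Active ERK leads, through serum response factor and its partners, to transcription of immediate-early genes, which need no new protein for their induction and whose mRNAs decay fast. The same pathway induces its own brakes: dual-specificity phosphatases (DUSPs) remove phosphate from MAP kinases, Sprouty and SPRED proteins act on RAS and RAF, and the ETS factors ETV4 and ETV5 are transcriptional outputs that are often read with them. In GCs the ERK pathway is known for its part in the response to the ovulatory luteinizing hormone surge. Cell handling also induces immediate-early genes in many tissues.

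No member passed the test between NT4 and Control. With the quasi-likelihood test of edgeR and adjustment over all 19259 genes tested, 0 of 35 members had an adjusted p under 0.05, beside 0% of all genes. At an unadjusted p under 0.05, 0 of 35 members passed in edgeR, beside 1.99% of all genes, and the DESeq2 Wald test gave 0 members at an adjusted p under 0.05, beside 65 of 19259 genes (0.338%). The study's own criterion pairs an unadjusted p under 0.05 with a fold of more than 2 or less than 0.5, and it was met by 0 members, beside 1.08% of all genes. All 35 members passed the filter on low counts, and each had an adjusted p of 0.9999. Since each group had 2 libraries, the p-values lean on a spread that edgeR estimates from all genes together, and no permutation of the group labels could reach 0.05.

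The 2 subsets lay close to each other. The median log2 fold change of NT4 over Control was 0.12 in the immediate-early subset, with 15 members above 0 and 8 below. It was 0.11 in the feedback subset, with 7 above and 5 below. The difference between these medians was 0.018, and the median over all genes tested was 0.0045, with 51% of genes above 0. The absolute log2 fold change was smaller than its standard error (SE) in 14 of 23 immediate-early and in 10 of 12 feedback members, as it was in 14344 of the 19259 genes tested. None of these medians was tested, since genes are not replicates.

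Members differed widely in level. A level in a library is given as CPM, the count scaled to a library total of 1000000, and levels of different genes are compared as CPM per kilobase of merged exons (CPM per kb). In each pair of values per group, the library numbered 1 comes first. The median over the 4 libraries' means was 36.7 CPM per kb in the immediate-early and 6.30 CPM per kb in the feedback subset. Fos, the core partner of JUN in AP-1, stood first at 350 CPM per kb. It was followed by Jund, the JUN member often found in resting cells, at 299 CPM per kb, and by the zinc finger factor Egr1 at 187 CPM per kb. Jun followed at 177, Ier2 at 139 and Fosb at 101 CPM per kb. At the low end, Spry4 was at 1.40, Etv4 at 0.342, Dusp2 at 0.281 and Fosl1 at 0.258 CPM per kb. The highest feedback member, Dusp1, was at 15.0 CPM per kb.

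The order of levels was loose. Of 34 pairs of neighbours in it, 31 had ranges over the 4 libraries that overlapped. The 3 pairs that did not overlap were Jund above Egr1, Junb above Fosl2 and Spry4 above Etv4.

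**Figure D1:**
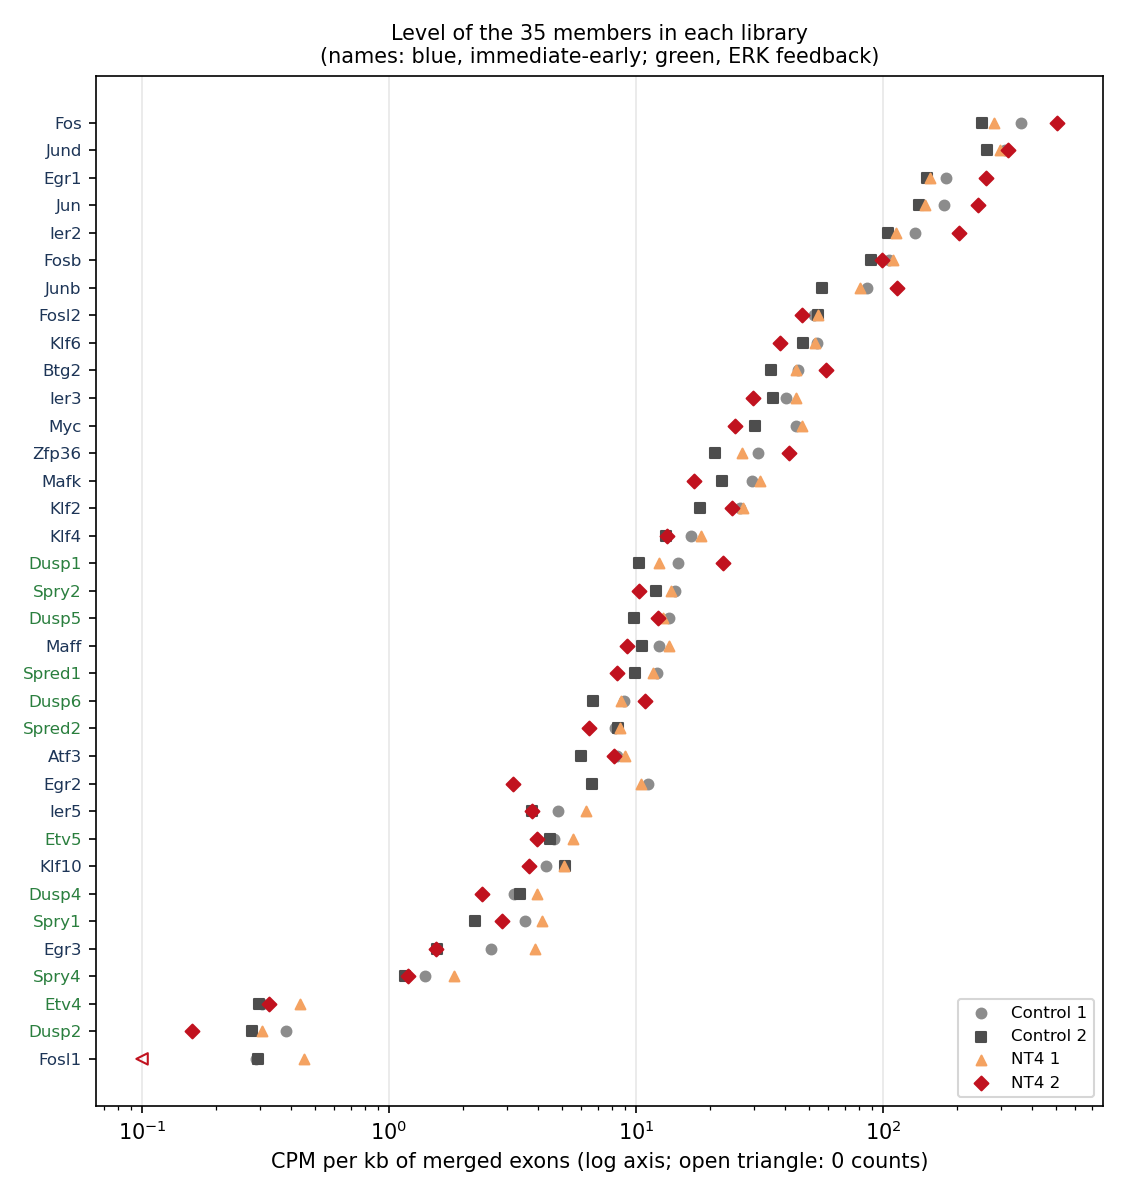
Level of each of the 35 members in each library, in CPM per kb of merged exons on a log axis, ordered by the mean over 4 libraries, with names of immediate-early genes in blue and of ERK feedback genes in green. Fos leads at a mean of 350 CPM per kb, Dusp1 leads the feedback genes at 15.0, and the open triangle marks Fosl1 in NT4 2, with 0 counts.

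The FOS family codes for AP-1 subunits that pair with JUN proteins. Fos (chr12:85473890-85477273 on GRCm38) was measured at 851 (Control 1), 591 (Control 2), 661 (NT4 1) and 1189.8 CPM (NT4 2). NT4 2 was 1.40 times the next library, whereas NT4 1 lay between the Control libraries, so the groups overlapped. With SD over n = 2 libraries, the group means were 721 ± 184 (Control) and 926 ± 374 CPM (NT4). The log2 fold change was 0.39 (SE 0.33, edgeR unadjusted p = 0.284, adjusted p = 0.9999). Fosb was at 658 and 561 CPM in the Control libraries and at 684 and 622 CPM in the NT4 libraries, an overlap with a log2 fold change of 0.12. Fosl2, which codes for the long-lived FRA-2, was at 509 and 531 CPM in Control and at 530 and 453 CPM in NT4.

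Fosl1, which codes for FRA-1, was near the limit of detection. It had 29 counts in Control 1 and 44 in Control 2, against 57 in NT4 1 and 0 in NT4 2. A count of 0 in NT4 2 allows up to 0.152 CPM, which is 3 read pairs, against 0.920 CPM in NT4 1. The 2 NT4 libraries were thus the highest and the lowest of the 4. Exons of Ccdc85b on the opposite strand cover 57.2% of the exons of Fosl1. Ccdc85b had 779 (Control 1), 876 (Control 2), 977 (NT4 1) and 1134 counts (NT4 2). These counts are not scaled to the library totals, of which that of NT4 2 was the largest. Exons of another gene on the opposite strand overlapped 9 of the 35 members, and no exon on the same strand did. Whether the counting used strand is not stated, and how far reads of such pairs were kept apart was not tested.

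The JUN family gives the DNA-binding partners of FOS. Junb (chr8:84974484-84978718) was at 198 (Control 1), 130 (Control 2), 186 (NT4 1) and 263 CPM (NT4 2). NT4 2 was highest and Control 2 lowest, with the remaining libraries close together between them. With SD over n = 2 libraries, the group means were 164 ± 47.7 (Control) and 224 ± 53.9 CPM (NT4). The oppositely transcribed Prdx2 lies over 7.52% of its exons and had more counts than Junb in every library (15940 and 24638 in Control, 19230 and 30273 in NT4, against 9789 and 9599, 11552 and 20664). Its part in the Junb counts was not tested. The Junb log2 fold change of 0.48 was the largest of the immediate-early subset in absolute size (SE 0.27, edgeR unadjusted p = 0.127, adjusted p = 0.9999). Jun was at 565 and 448 CPM in Control and at 472 and 771 CPM in NT4. Jund was at 523 and 440 CPM in Control and at 496 and 537 CPM in NT4, and 52.6% of its exons lie under the antisense gene Gm11175, which had at most 149 counts in a library.

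The EGR genes code for zinc finger factors that bind GC-rich sites, and their members split. Egr1 was at 807 (Control 1), 679 (Control 2), 693 (NT4 1) and 1172.5 CPM (NT4 2), so that NT4 2 was 1.45 times the next library. Egr2 was at 38.2 (Control 1), 22.6 (Control 2), 35.7 (NT4 1) and 10.8 CPM (NT4 2), so that the lowest other library was 2.08 times NT4 2. The same library was therefore the highest of the 4 for Egr1 and the lowest for Egr2. Egr3 (chr14:70077203-70082614) was at 11.5 (Control 1), 6.90 (Control 2), 17.3 (NT4 1) and 6.80 CPM (NT4 2). Here NT4 1 was highest, and Control 2 and NT4 2 nearly coincided. Its log2 fold change was 0.41 (SE 0.48, edgeR unadjusted p = 0.433, adjusted p = 0.9999).

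Among the IER genes, Ier2 (chr8:84661331-84662852), which codes for a nuclear protein, was at 205 (Control 1), 159 (Control 2), 173 (NT4 1) and 309 CPM (NT4 2). NT4 2 was 1.51 times the next library, and NT4 1 lay between the Control libraries. The log2 fold change was 0.43 (SE 0.31, edgeR unadjusted p = 0.213, adjusted p = 0.9999). Ier3 was at 45.7 and 40.7 CPM in Control and at 50.2 and 33.7 CPM in NT4. Ier5 was at 15.9 and 12.4 CPM in Control and at 20.6 and 12.4 CPM in NT4. For both, NT4 1 was the highest library and NT4 2 the lowest.

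The Krüppel-like factors regulate growth and differentiation. Klf6 was the most abundant of them by CPM per kb, at 238 and 209 CPM in Control and at 233 and 168 CPM in NT4. Klf4 was at 51.0 and 40.3 CPM in Control and at 55.9 and 40.8 CPM in NT4. Klf2 was at 48.9 and 33.6 CPM in Control and at 49.97 and 45.1 CPM in NT4. In each of these genes the Control range and the NT4 range overlapped. Klf10, a gene induced by TGF-beta, was at 18.03 and 21.5 CPM in Control and at 21.3 and 15.4 CPM in NT4.

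Of the remaining transcription factors, Atf3, a stress-responsive member of the ATF/CREB family, was at 18.1 and 12.9 CPM in Control and at 19.5 and 17.6 CPM in NT4. Myc, a driver of growth and ribosome production, was at 121 and 82.4 CPM in Control and at 128 and 68.2 CPM in NT4. Maff and Mafk code for small MAF proteins. Maff was at 32.0 and 27.4 CPM in Control and at 35.4 and 23.9 CPM in NT4, and Mafk at 115 and 87.3 CPM in Control and at 125 and 66.8 CPM in NT4. In Myc, Maff and Mafk the NT4 libraries enclosed both Control libraries, with NT4 1 above and NT4 2 below them. The oppositely transcribed Tmem184a lies over 4.33% of the exons of Mafk. Tmem184a had 2169 (Control 1), 735 (Control 2), 2786 (NT4 1) and 544 counts (NT4 2), and its part in the Mafk counts was not tested.

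Btg2 and Zfp36 restrain cell growth and mRNA stability. Btg2 (chr1:134075170-134079120), an antiproliferative gene that recruits the deadenylase complex, was at 125 (Control 1), 96.3 (Control 2), 122 (NT4 1) and 162 CPM (NT4 2). Its unadjusted p of 0.113 was the smallest of the 35 members in edgeR, with a log2 fold change of 0.39 (SE 0.20) and an adjusted p of 0.9999. Zfp36 (chr7:28376784-28380253), which codes for tristetraprolin, a protein that binds AU-rich mRNA and speeds its decay, was at 109 (Control 1), 72.3 (Control 2), 92.9 (NT4 1) and 145 CPM (NT4 2). In both genes NT4 2 was highest, Control 2 lowest and NT4 1 between the Control libraries. The log2 fold change of Zfp36 was 0.42 (SE 0.29, edgeR unadjusted p = 0.203, adjusted p = 0.9999).

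AU-rich elements mark many short-lived mRNAs. The nonamer ttatttatt, a core of the element that tristetraprolin binds, was searched in the annotated 3' UTR of 1 representative transcript per gene. Myc has no annotated 3' UTR in its representative transcript and could not be searched. The nonamer was present in 4 of the other 22 immediate-early members (Fos, Fosl2, Maff and Zfp36) and in 1 of 12 feedback members (Dusp1), beside 7.28% of 14583 protein-coding genes with a 3' UTR. The sites are shown because they are a feature that some members share and that the choice of members did not use. They are read 5' to 3' on GRCm38 with the gene models of GENCODE M21, and capitals mark the nonamer.
Fos (chr12:85477103-85477131, plus strand): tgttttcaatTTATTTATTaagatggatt
Fosl2 (chr5:32156871-32156899, plus strand): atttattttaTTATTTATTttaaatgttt
Maff, first site (chr15:79358778-79358806, plus strand): ttccacactcTTATTTATTgcacgaatct
Maff, next site (chr15:79358977-79359005, plus strand): ctcccagagtTTATTTATTttctgacttc
Zfp36 (chr7:28376951-28376979, minus strand): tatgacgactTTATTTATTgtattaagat
Dusp1, first site (chr17:26506159-26506187, minus strand): gagctggtccTTATTTATTtaacaccccc
Dusp1, next site (chr17:26505870-26505898, minus strand): gtttttacctTTATTTATTtttgtgtagg
A match is a description of letters, not a measured site. Of the genes with a nonamer, Fos, Zfp36 and Dusp1 were highest in NT4 2, and Fosl2 and Maff were lowest in it.

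The DUSP phosphatases held the highest (Dusp1) and the lowest (Dusp2) fold change of the feedback subset. Dusp1 (chr17:26505590-26562128), a nuclear phosphatase of several MAP kinases, was at 48.8 (Control 1), 34.1 (Control 2), 41.0 (NT4 1) and 74.3 CPM (NT4 2). NT4 2 was 1.52 times the next library, while NT4 1 lay between the Control libraries. With SD over n = 2 libraries, the group means were 41.5 ± 10.4 (Control) and 57.6 ± 23.6 CPM (NT4). The log2 fold change of 0.50 was the largest of all 35 members in absolute size (SE 0.34, edgeR unadjusted p = 0.190, adjusted p = 0.9999). Dusp6 (chr10:99263231-99267489), a cytoplasmic phosphatase that prefers ERK, was at 27.9 (Control 1), 20.9 (Control 2), 27.4 (NT4 1) and 33.95 CPM (NT4 2). It showed the same order of libraries, with a log2 fold change of 0.35 (SE 0.21, edgeR unadjusted p = 0.156, adjusted p = 0.9999). Dusp5, a nuclear ERK phosphatase, was at 33.6 and 24.2 CPM in Control and at 31.8 and 30.4 CPM in NT4.

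Dusp4 was at 8.78 and 9.32 CPM in Control and at 10.9 and 6.53 CPM in NT4, so that the NT4 libraries enclosed the Control libraries. Dusp2 (chr2:127336159-127338376), best known from activated immune cells, was under 1 CPM in all 4 libraries. It was at 0.767 (Control 1), 0.556 (Control 2), 0.613 (NT4 1) and 0.318 CPM (NT4 2), and the floor of 3 read pairs was 0.152 to 0.242 CPM. Its log2 fold change was -0.49 (SE 0.60, edgeR unadjusted p = 0.448, adjusted p = 0.9999).

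Sprouty genes code for inhibitors of receptor tyrosine kinase signalling. Spry1 (chr3:37639947-37644598) was at 10.3 (Control 1), 6.496 (Control 2), 12.1 (NT4 1) and 8.30 CPM (NT4 2). Both groups spread over a similar range, and the log2 fold change was 0.30 (SE 0.30, edgeR unadjusted p = 0.364, adjusted p = 0.9999). Spry2 was at 29.9 and 25.1 CPM in Control and at 28.8 and 21.5 CPM in NT4. Spry4 was at 6.64 and 5.55 CPM in Control and at 8.74 and 5.65 CPM in NT4. In all 3 Sprouty genes replicate 1 was above replicate 2 in both groups.

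The SPRED proteins bring neurofibromin to RAS. Spred1 was at 82.3 and 67.4 CPM in Control and at 79.3 and 56.8 CPM in NT4. Spred2 was at 38.1 and 38.9 CPM in Control and at 39.8 and 29.7 CPM in NT4. Both were lowest in NT4 2, with log2 fold changes of -0.12 for Spred1 and -0.13 for Spred2 that were smaller than their SE.

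Etv4 (chr11:101769742-101785371) was the only member whose groups did not overlap. It was at 0.949 (Control 1), 0.922 (Control 2), 1.36 (NT4 1) and 1.02 CPM (NT4 2). Both NT4 libraries were above both Control libraries, but the NT4 libraries lay farther from each other than NT4 2 lay from the Control libraries. Over all genes tested, 11.9% had both NT4 libraries above both Control libraries and 14.6% had both below, so 1 of 35 members in the first class and 0 in the second were below these shares. The log2 fold change of Etv4 was 0.36 (SE 0.39, edgeR unadjusted p = 0.401, adjusted p = 0.9999). Etv5, its close relative, was at 19.02 and 18.4 CPM in Control and at 22.8 and 16.3 CPM in NT4, and overlapped.

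The median gap between the NT4 libraries was larger than that between the group means. Of the 33 members at a mean of at least 1 CPM, 33 had a larger gap between the replicate libraries of either Control or NT4 than between the group means on the log2 scale, beside 85.9% of 14332 genes at that level. The median fold between the Control libraries was 1.25 over these members against 1.13 over those genes. Between the NT4 libraries it was 1.42 against 1.18, and between the group means 1.16 against 1.08. Control 1 was above Control 2 in 29 of 33 members (47.9% of genes), and NT4 1 was above NT4 2 in 23 of 33 (47.1% of genes).

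Both subsets showed this spread. Between the NT4 libraries the median fold was 1.45 for immediate-early and 1.36 for feedback members. Among other lists, over genes at a mean of at least 1 CPM, it was 1.57 for granulosa markers and 1.33 for theca and stroma markers. It was 1.28 for stress-responsive genes, 1.26 for ERK effectors and 1.19 for the 17 other feedback genes. The ERK cascade stood at 1.16 and oocyte markers at 1.104. Lists with only 1 or 2 such genes gave 1.86 (endothelium), 1.35 (surface epithelium), 1.315 (erythroid) and 1.24 (macrophage). These folds are descriptions of the same libraries and were not tested.

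**Figure D2:**
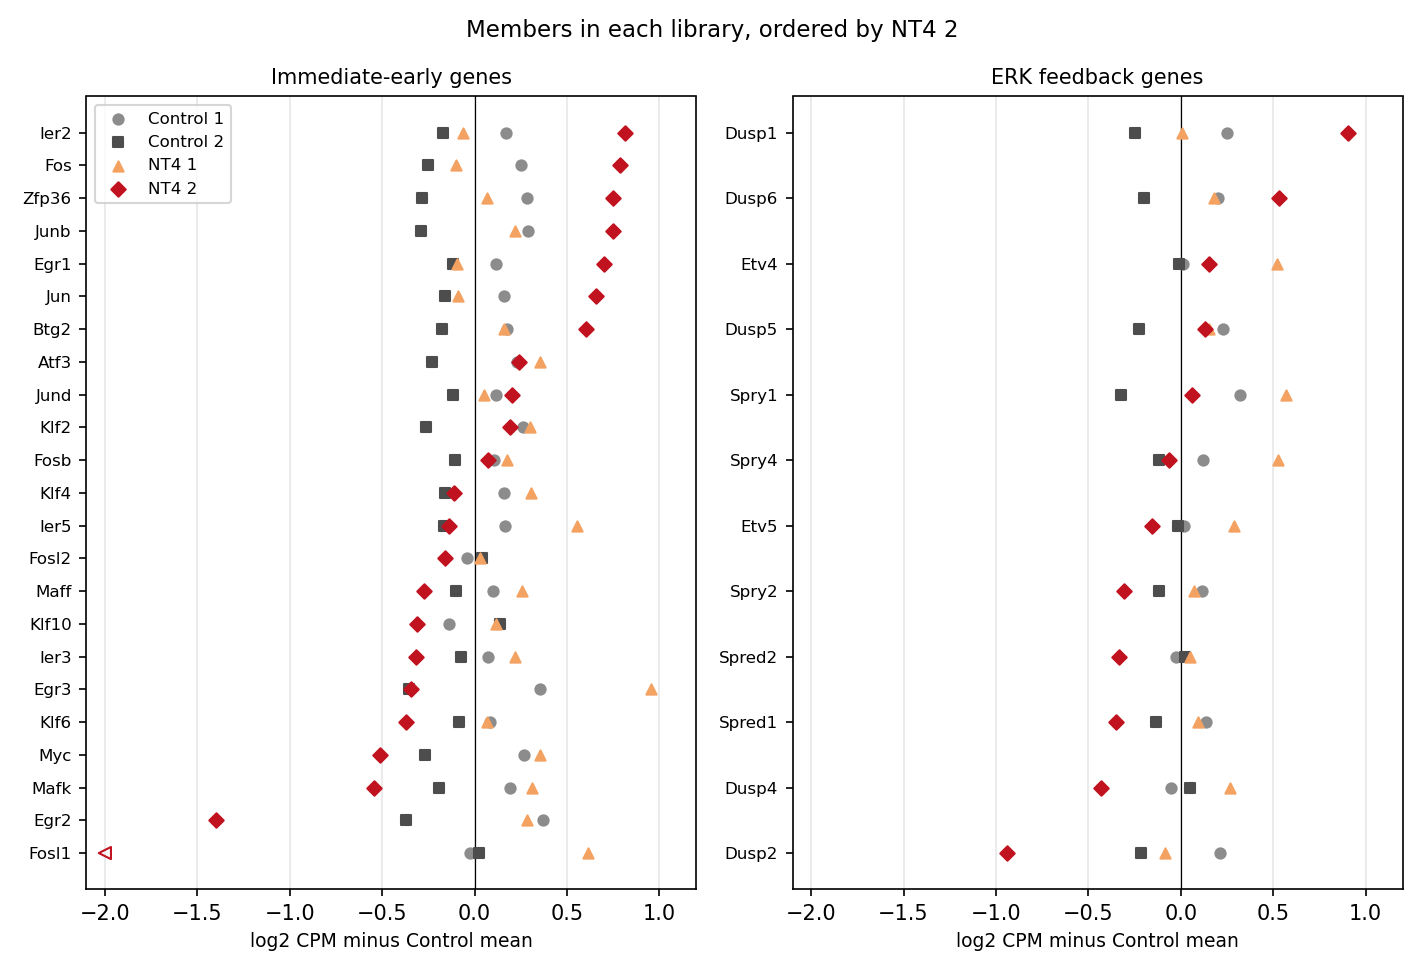
Log2 CPM of each member in each library minus the mean of the 2 Control libraries, for 23 immediate-early genes on the left and 12 ERK feedback genes on the right, ordered by NT4 2. NT4 2 (red diamonds) runs from above all other libraries in Ier2, Fos and Dusp1 to below them in Egr2 and Dusp2, and the open triangle marks Fosl1 in NT4 2, which lies off the axis at -4.35.

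NT4 1 was the library that was highest most often, for 17 of 35 members (27.1% of all genes tested). Control 1 was highest for 6 (26.3%), and Control 2 was the lowest library for 18 (21.4%). NT4 2 was highest for 10 of 35, a share near that of all genes (25%), and of these 8 were immediate-early genes (Fos, Jund, Egr1, Jun, Ier2, Junb, Btg2 and Zfp36) and 2 were phosphatases (Dusp1 and Dusp6). In those 10 members NT4 2 was 1.03 to 1.52 times the highest other library, and Control 2 was the lowest library in all 10. NT4 1 was 0.917 to 1.14 times the Control mean in them, against 1.11 to 1.79 times for NT4 2. Their median log2 fold change was 0.39, and their unadjusted p in edgeR ran from 0.113 to 0.394. The 10 members were picked by the values of NT4 2, so this median is a description.

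NT4 2 was the lowest library for 17 members, 11 immediate-early and 6 feedback genes, beside 31.2% of all genes. NT4 1 was the highest library for 10 of these 17, and their median log2 fold change was -0.07. In the other 8 members NT4 2 lay between other libraries. At a ratio of 1.5, NT4 2 was above every other library for 2 members (Ier2 and Dusp1), beside 1.79% of genes, and below every other library for 3 (Fosl1, Egr2 and Dusp2), beside 5.61%. NT4 1 was at least 1.5 times every other library for 2 members (Fosl1 and Egr3), beside 3.3%. Over the 14332 genes at a mean of at least 1 CPM, these 3 shares were 0.879%, 2.02% and 1.16%. Ier2, Dusp1, Egr2 and Egr3 were at that level, and Fosl1 and Dusp2 were under it.

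Taken 1 library at a time against the mean of the Control libraries, the NT4 libraries gave medians of opposite sign. NT4 1 was above the Control mean for 19 of 23 immediate-early members, with a median log2 difference of 0.22, and for 11 of 12 feedback members, with a median of 0.17. NT4 2 was above it for 11 of 23 and 5 of 12, with medians of -0.11 in both subsets. In median log2 deviation from each gene's mean, immediate-early members stood at 0.08 (Control 1), -0.23 (Control 2), 0.16 (NT4 1) and -0.13 (NT4 2). In that subset each NT4 library was above the Control library of its number, but shared numbers are not known to mark pairs. For feedback members NT4 1 (0.16) was above Control 1 (0.03), but NT4 2 (-0.18) was below Control 2 (-0.12). Of 19259 genes tested, NT4 1 was above the Control mean for 9799 and NT4 2 for 9996, with medians of 0.01 and 0.02. The interquartile range of the immediate-early members was 0.25 in NT4 1 and 0.96 in NT4 2, against 0.40 and 0.46 over all genes tested. For feedback members it was 0.28 and 0.48.

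**Figure D3:**
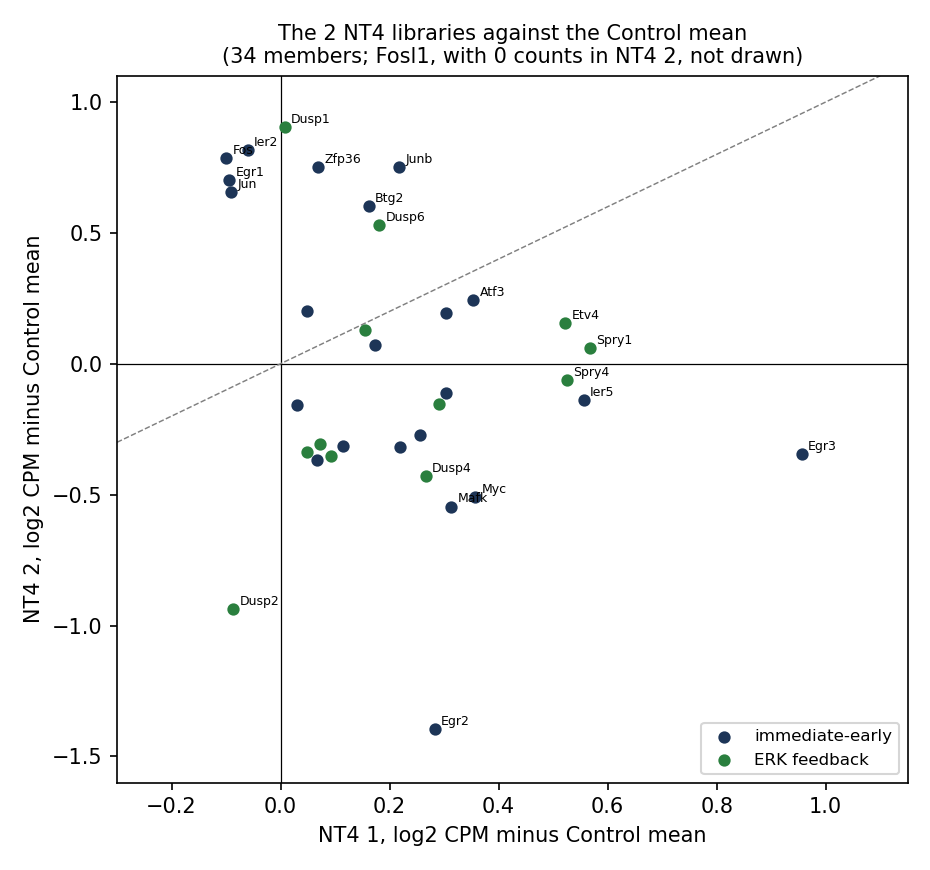
Log2 CPM minus the Control mean in NT4 1 (horizontal) and NT4 2 (vertical) for 34 members, blue for immediate-early and green for ERK feedback genes, with equality as the dashed line and Fosl1 not drawn. Dusp1, Ier2 and Fos lie high in NT4 2 at about the Control level in NT4 1, Egr3 lies high in NT4 1 alone, and Egr2 and Dusp2 lie low in NT4 2.

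Leaving out NT4 1 moved the medians most. Without it, 11 members had an unadjusted p under 0.05 in edgeR (Fosl1, Egr1, Ier2, Egr2, Jun, Dusp1, Fos, Btg2, Zfp36, Mafk and Junb), beside 4.24% of all genes in that fit, with adjusted p from 0.796 to 0.910. In that fit the log2 fold change was 0.80 for Ier2, 0.88 for Dusp1 and -1.45 for Egr2, and Egr2 and Fosl1 met the study's criterion, beside 1.68% of genes. Without NT4 2, 1 member (Egr3) had an unadjusted p under 0.05 (3.63% of genes), as had 1 (Junb) without Control 1 (2.71%) and 0 without Control 2 (3.23%). Each of these fits assumes that the lone library of a group varies like those of the other group. The median of the immediate-early subset was -0.13 without NT4 1 and 0.27 without Control 1, and that of the feedback subset -0.12 and 0.23.

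**Figure D4:**
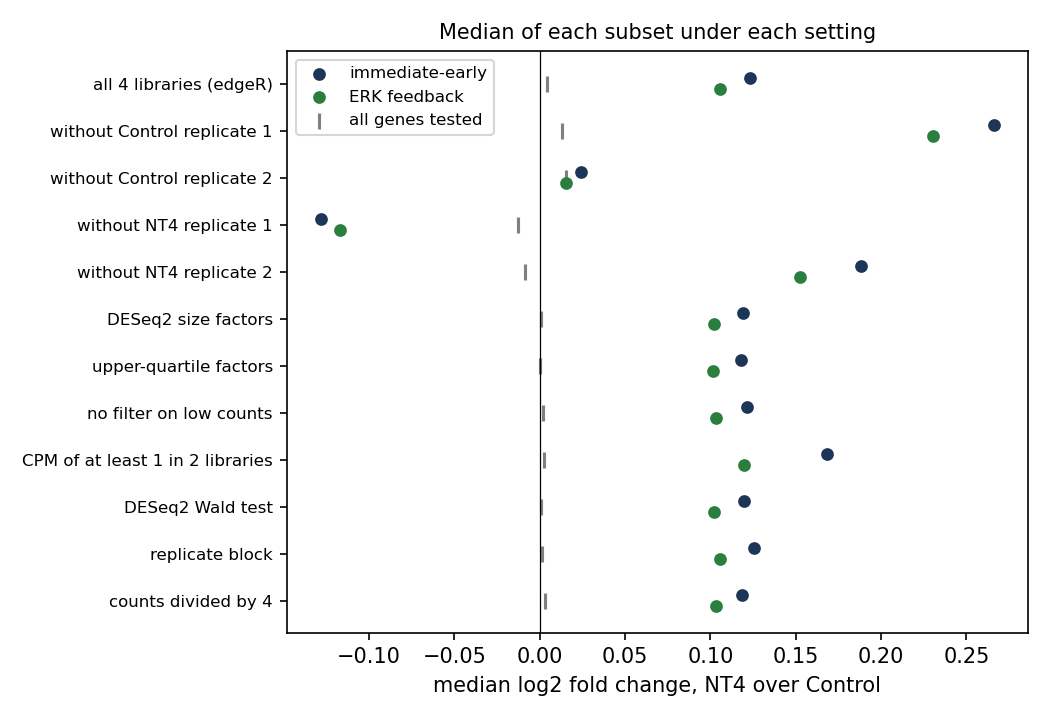
Median log2 fold change of NT4 over Control for the immediate-early (blue) and ERK feedback (green) subsets, with all genes tested as grey marks, in the fit of all 4 libraries and under each other setting. Both subsets lie close together under every setting and are below 0 only without NT4 1, at -0.13 and -0.12.

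Features that the choice of members did not use were read from the annotation. Immediate-early members were short, with a median genomic span of 4.32 kb for the representative transcript, against 13.0 kb for feedback members and 21.9 kb for protein-coding genes tested. A span under 5 kb was found in 13 of 23 immediate-early and 5 of 12 feedback members, beside 13.4% of those genes. Of the 10 members highest in NT4 2, 9 had a span under 5 kb, and of the 17 lowest in it, 7 did. The median number of exons was 3 in the immediate-early subset, 4 in the feedback subset and 9 over the protein-coding genes.

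Promoters were searched for motifs of factors that act in this pathway, in RefSeq windows from 250 bases before to 50 bases after the start site on GRCm38.p6. A window was found for 17 of 23 immediate-early and 9 of 12 feedback members. Fosl1, Egr1, Egr3, Ier2, Myc, Klf10, Dusp4, Spry4 and Etv4 had no window and were not searched. The windows of Jund and Spred1 end before the GENCODE M21 models of these genes begin, and neither window held a motif. Both strands were searched for the CArG box (the site of serum response factor), the CRE TGACGTCA (CREB), the AP-1 site TGANTCA, the EGR site GCGNGGGCG and the ETS site CCGGAAGT. The EGR site was in 8 of 17 immediate-early members (Fosb, Fosl2, Maff, Mafk, Klf2, Klf4, Btg2 and Zfp36) and in 1 of 9 feedback members (Dusp2), beside 6.27% of 27025 genes with a window. The windows of members had a median GC content of 63% against 52.7% for all windows, and 19.7% of all windows at or above that GC content held an EGR site.

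The CArG box was in Egr2 and Zfp36 and in the feedback member Dusp5, beside 1.81% of genes. Bases outside the windows were not searched, so a member not named here may hold a box elsewhere. The CRE was in Maff and Btg2 and in the feedback member Dusp1, beside 2.03% of genes. No member window held the AP-1 or the ETS letters, which were in 8.97% and 4.31% of genes, and this says only that these letters are not in these windows. The 180 bases before the start site are shown for 5 genes that were named above: Btg2, Zfp36 and Dusp1, highest in NT4 2, Egr2, lowest in it, and Dusp5, which lay between. Capitals mark the motif named beside each sequence.
Btg2 (chr1:134079156-134079335, minus strand, CRE and EGR site): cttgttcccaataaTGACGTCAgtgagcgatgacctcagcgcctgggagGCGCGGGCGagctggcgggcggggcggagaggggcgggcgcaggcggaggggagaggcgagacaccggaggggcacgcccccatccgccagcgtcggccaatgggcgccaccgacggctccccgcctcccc
Zfp36 (chr7:28379229-28379408, minus strand, EGR site and CArG box): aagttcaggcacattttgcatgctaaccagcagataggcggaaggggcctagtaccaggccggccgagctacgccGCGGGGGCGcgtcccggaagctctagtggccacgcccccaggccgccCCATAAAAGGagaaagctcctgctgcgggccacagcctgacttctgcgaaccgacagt
Dusp1 (chr17:26508473-26508652, minus strand, CRE): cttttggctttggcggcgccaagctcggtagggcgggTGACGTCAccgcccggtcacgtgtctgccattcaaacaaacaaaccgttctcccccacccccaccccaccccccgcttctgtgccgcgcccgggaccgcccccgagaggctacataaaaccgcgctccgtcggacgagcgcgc
Egr2 (chr10:67537689-67537868, plus strand, CArG box): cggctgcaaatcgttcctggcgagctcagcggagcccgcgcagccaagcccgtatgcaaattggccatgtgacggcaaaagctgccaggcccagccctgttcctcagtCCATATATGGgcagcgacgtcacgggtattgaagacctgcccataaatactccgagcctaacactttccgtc
Dusp5 (chr19:53528965-53529144, plus strand, adjoining CArG boxes): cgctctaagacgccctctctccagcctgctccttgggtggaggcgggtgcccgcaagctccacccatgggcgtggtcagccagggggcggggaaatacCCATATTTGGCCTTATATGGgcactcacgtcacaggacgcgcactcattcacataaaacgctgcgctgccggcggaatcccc
Matches were thus found in members that were high and in members that were low in NT4 2, and a match is not a measured binding site.

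The rest of the pathway was read from lists written by role. The receptor gene Ntrk2 was at 1.74 (Control 1), 0.705 (Control 2), 1.65 (NT4 1) and 0.712 CPM (NT4 2), and its log2 fold change was -0.03 (SE 0.63). Ngfr was at 2.34 and 2.51 CPM in Control and at 2.45 and 3.02 CPM in NT4, and its log2 fold change was 0.20 (SE 0.29). Of the 24 genes from the receptors to the kinases, 0 passed in edgeR at an adjusted p or an unadjusted p under 0.05, with 13 above 0 and 11 below and a median log2 fold change of 0.03. Of 14 ERK effectors and their partner factors, 5 were above 0 and 9 below, with a median of -0.03.

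Of 17 other feedback genes tested, 8 were above 0 and 9 below, with a median of -0.01. Their unadjusted p was under 0.05 in 3 (Dusp3, Dusp16 and, named after its value was seen, Dusp22), beside 1.99% of all genes, and 0 passed after adjustment. Creb1, which codes for the factor that binds the CRE, was at 25.8 and 25.7 CPM in Control and at 53.7 and 44.3 CPM in NT4. The groups were apart, with a log2 fold change of 0.95 (SE 0.15, edgeR unadjusted p = 0.00119), but the adjusted p was 0.817. The phosphatase gene Dusp3 was at 32.3 and 34.1 CPM in Control and at 21.6 and 18.2 CPM in NT4 (log2 fold change -0.72, SE 0.16, edgeR unadjusted p = 0.00506, adjusted p = 0.9999).

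Dusp16, a phosphatase of JNK and p38, was at 47.8 and 57.2 CPM in Control and at 33.7 and 27.2 CPM in NT4 (log2 fold change -0.77, SE 0.18, edgeR unadjusted p = 0.00613, adjusted p = 0.9999). Spred3, the third SPRED gene, was at 1.72 and 2.87 CPM in Control and at 3.74 and 4.03 CPM in NT4 (log2 fold change 0.77, SE 0.34, edgeR unadjusted p = 0.0714, adjusted p = 0.9999). None of these genes is among the 35 members, and none passed the adjusted threshold.

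Total counts ran from 49520092 to 78704020 per library. The floor of 3 read pairs leaves out any error but that of counting, as copies made by PCR are not separate molecules. All 15 granulosa markers were above a mean of 1 CPM, and their summed level was 14081 and 17442 CPM in Control and 12401 and 19145 CPM in NT4, so NT4 2 was the highest and NT4 1 the lowest library. The summed level of the immediate-early members was 5302 and 4306 CPM in Control and 4904 and 6134 CPM in NT4. That of 19 heat shock and other stress-responsive genes was 5262 and 4322 CPM in Control and 5516 and 4627 CPM in NT4, with Control 2 the lowest. The median deviation from each gene's mean, in the order Control 1, Control 2, NT4 1 and NT4 2, was 0.08, -0.23, 0.16 and -0.13 on the log2 scale for immediate-early members and 0.03, -0.12, 0.16 and -0.18 for feedback members. It was 0.06, -0.22, 0.20 and -0.14 for the stress genes, a list that itself holds genes induced early by many stimuli (Nr4a1, Nr4a2, Nr4a3, Csrnp1, Ccn1 and Gadd45 genes). For the other feedback genes it was 0.08, -0.04, 0.19 and -0.30, and for granulosa markers it ran the other way, at -0.15, 0.13, -0.27 and 0.31.

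The summed level of 12 theca and stroma markers was 1325 and 1313 CPM in Control and 1893 and 1466 CPM in NT4, and that of 12 oocyte markers was 132 and 90.2 CPM in Control and 106 and 101 CPM in NT4. The log2 fold change was above 0 for 12 of 12 theca and stroma markers (51% of all genes), with a median of 0.38, among them Cyp17a1 at 0.58, Lum at 0.65 and Tcf21 at 0.57, and both NT4 libraries were above both Control libraries in 7 of 12 (11.9% of genes). In edgeR 0 of them passed after adjustment, with 4 at an unadjusted p under 0.05 (1.99% of genes). Endothelial, macrophage, erythroid and surface epithelium lists summed to at most 28.5 CPM in a library. Of 7 endothelial markers, the log2 fold change was above 0 in 5 and below 0 in 2, from -1.78 (Kdr) to 1.97 (Tek), both at a mean under 1 CPM and named after their values were seen. Groups did not overlap in 3: Tek and Emcn, higher in NT4 (11.9% of genes), and Kdr, lower in NT4 (14.6% of genes). The study's criterion was met by 1 (Tek), beside 1.08% of genes. Of 9 macrophage markers, 6 were under 1 CPM in all 4 libraries, and the highest value of any in a library was 1.42 CPM (Cd68). The part of depth, stress genes and theca and stroma markers in the values of the members was not tested.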

How the data were processed

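Per gene, the authors deposited expected counts, which are whole numbers estimated from reads mapped with HISAT2 to the mouse genome (GRCm38, mm10) and assembled with StringTie. They are not normalized. How StringTie output became counts, and whether strand was used, is not given in the sources used here, although the libraries marked strand with dUTP. Counts from 1 to 12 sat at exactly 4, 8 or 12 in 45.4% to 46.2% of genes per library, so about 4 counts were taken as 1 read pair. The series table and the files of single libraries held identical counts.

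Of 55385 genes, 55144 matched a symbol. Gene models were those of GENCODE M21, and promoter windows those of RefSeq on GRCm38.p6. The quasi-likelihood test of edgeR 4.0.16 in R 4.3.3 was run with TMM normalization, edgeR's filter on low counts, the group alone in the model and two-sided p-values adjusted by Benjamini-Hochberg across 19259 genes. CPM are counts scaled to the library total, and differences of log2 CPM used a prior count of 2. Full statistics were given for up to 5 members of each subset with the largest absolute fold change and, chosen after its value was seen, for Btg2, which had the smallest p. Library values were given for members at a mean of at least 1 CPM, with Fosl1 and Dusp2 added as values. Genes of other lists were named where groups did not overlap and the absolute log2 fold change was at least 0.5, at a mean of at least 1 CPM, with Ntrk2 and Ngfr always named. The procedure was tested on simulated data. The members, lists and naming rule were chosen with earlier results of these data known. Alternatives were other normalization factors (DESeq2 1.42.0 size factors, upper quartile), other filters, the DESeq2 Wald test, a replicate block, counts divided by 4 and leaving out each library.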

Additional observations from a re-analysis of the deposited data

How the results depend on the processing

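With 2 libraries in each group, the values of single members are limited by the spread between libraries. Across DESeq2 size factors, upper-quartile factors, both filters, the DESeq2 Wald test, the replicate block and counts divided by 4, 0 members were called, and 242 of 243 member values kept their direction and their side of the threshold. The exception was Maff, at -0.0087 with the replicate block against 0.01. The same replicate numbers did not establish pairs: the deviations of same-numbered libraries had a Pearson correlation of 0.14 and a Spearman correlation of 0.26 across 19259 genes, which are not independent. With the replicate block the medians were 0.13 for the immediate-early and 0.11 for the feedback subset, and the smallest unadjusted p of a member was 0.0898 in edgeR.

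Over all genes, the count called at an adjusted p under 0.05 was 0 in edgeR with 383 genes at an unadjusted p under 0.05, 10 without the filter on low counts, 65 with the DESeq2 Wald test and 0 to 37 when each library was left out (12 without Control 1 and 37 without Control 2). The count past the study's criterion was 208, against 345 without the filter, 87 with the CPM filter, 119 with counts divided by 4 and 341 to 512 when each library was left out. Members past that criterion were 0 to 2 when each library was left out, the 2 being without NT4 1. The immediate-early median was -0.13 to 0.27 and the feedback median -0.12 to 0.23 in those fits. Limited to members at a mean of at least 1 CPM, the medians were 0.17 and 0.13, and with Dusp1 and Dusp2 counted as immediate-early genes they were 0.12 and 0.11. Those last values could not move, since Dusp1 and Dusp2 lie at opposite ends of the range, and say nothing about stability.

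Leaving out 1 library reversed the log2 fold change of 25 of 35 members at least once (17 when NT4 2 was left out and 6 for each of the others), and the cause was not tested. Their ranges were Dusp1 -0.014 to 0.88, Dusp4 -0.44 to 0.26, Dusp5 -0.079 to 0.37, Egr1 -0.10 to 0.69, Egr2 -1.45 to 0.24, Egr3 -0.40 to 0.92, Etv5 -0.16 to 0.29, Fos -0.12 to 0.76, Fosl1 -8.31 to 0.64, Fosl2 -0.16 to 0.029, Ier2 -0.071 to 0.80, Ier3 -0.33 to 0.22, Ier5 -0.16 to 0.55, Jun -0.10 to 0.64, Klf10 -0.33 to 0.11, Klf2 -0.0072 to 0.50, Klf4 -0.13 to 0.29, Klf6 -0.38 to 0.063, Maff -0.28 to 0.25, Mafk -0.56 to 0.30, Myc -0.54 to 0.33, Spred1 -0.36 to 0.085, Spred2 -0.34 to 0.046, Spry2 -0.32 to 0.068 and Spry4 -0.074 to 0.52. The lowest value of Fosl1 was fitted against 0 counts in NT4 2 and is no bound. The 10 members that kept their direction in all of these fits were Atf3, Btg2, Dusp2, Dusp6, Etv4, Fosb, Junb, Jund, Spry1 and Zfp36. Their sizes moved too: Atf3 0.072 to 0.53, Btg2 0.15 to 0.58, Dusp2 -1.02 to -0.10 and Dusp6 0.17 to 0.56. Etv4 ran from 0.15 to 0.53, Fosb from 0.024 to 0.22 and Junb from 0.19 to 0.79. Jund ran from 0.019 to 0.24, Spry1 from 0.016 to 0.66 and Zfp36 from 0.041 to 0.73.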
